A study of Mus musculus with 4 samples.

Results

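Interferon-stimulated genes are the genes that cells switch on when type I or type II interferon, or RNA and DNA sensed inside the cell, reaches the JAK-STAT and IRF transcription factors. A list of 39 such genes was followed here through the culture of hair follicle mesenchymal cells. Members were found as the rows of the raw count table whose gene symbol equalled a listed name. All 39 were found among the 51826 gene IDs of the table, each with 1 row, and all 39 passed the filter for testing, a mean of at least 10 counts over the libraries, with 16734 genes in all. The list covers 4 sensors of viral RNA or DNA, 4 transcription factors, 8 RNA-binding effectors, 4 membrane restriction factors, 6 GTPases, 7 genes of the ISG15, ubiquitin and ADP-ribosylation group and 6 other effectors.

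The cells were dermal papilla cells (DPCs), the mesenchymal cells at the base of the hair bulb, and dermal sheath cells (DSCs), which wrap the follicle. They were grown from vibrissa (whisker) follicles of EGFP-transgenic C57BL/6J mice of 5 to 6 weeks, and the labels give the genotype of every library as WT. Both cell types were sampled at passage 3, called low passage, and at passage 9, called high passage, which makes 4 groups. All were untreated expanded cultures in DMEM, and passage number was the labelled difference within a cell type. Each group was 1 RNA-seq library, so no comparison between groups had replicates, and passage cannot be told apart from any batch in which the cultures or libraries were made. In bulk RNA, fewer cells of a type and less RNA per cell also cannot be told apart.

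An interferon binds its receptor, the JAK1, TYK2 or JAK2 kinases phosphorylate STAT proteins, and a complex that holds STAT2 and IRF9 binds the interferon-stimulated response element (ISRE) in the promoters of the target genes. A second element, the gamma-activated site (GAS), is bound after interferon gamma. Many target genes block a step of virus growth, such as entry, translation of viral RNA or release of particles. Fibroblasts, like most cells, hold these genes at low levels without infection and raise them when interferon or cytoplasmic nucleic acid is present. Several of the genes themselves encode the sensors and transcription factors of the pathway, which forms a positive loop.

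Promoter sequence bears on the list because the rule used gene names alone. Windows of 300 bases, from 250 bases before the annotated start to 50 bases after it, were taken from RefSeq on build GRCm38.p6, and 30 of the 39 members had a window. Dhx58, Zbp1, Oas2, Mx1, Mx2, Usp18, Parp9, Parp14 and Rtp4 were not matched. An ISRE-like match was defined as 2 copies of GAAA separated by any 2 bases, on either strand, with overlapping matches counted each. The regions below precede 5 members that were at least 2-fold higher at passage 9 in 1 or both cell types, and they are shown as examples of how the matches are arranged, chosen after the values were seen. Capitals mark the ISRE-like matches, and each sequence is given 5' to 3' on the strand of its gene. Bases that lie inside the gene as the deposited tables place it were left off.
Ifit1: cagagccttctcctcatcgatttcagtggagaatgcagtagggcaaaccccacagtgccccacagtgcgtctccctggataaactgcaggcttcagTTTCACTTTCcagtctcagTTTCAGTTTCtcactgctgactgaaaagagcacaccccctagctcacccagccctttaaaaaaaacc
Ifit3: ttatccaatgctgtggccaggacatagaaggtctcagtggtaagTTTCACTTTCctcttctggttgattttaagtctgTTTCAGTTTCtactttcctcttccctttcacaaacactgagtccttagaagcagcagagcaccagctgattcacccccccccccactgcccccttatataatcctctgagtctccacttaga
Isg15: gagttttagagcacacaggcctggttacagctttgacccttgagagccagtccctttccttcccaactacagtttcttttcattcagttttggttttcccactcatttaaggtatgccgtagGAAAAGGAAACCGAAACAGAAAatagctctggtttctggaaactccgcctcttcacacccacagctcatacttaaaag
Gbp3: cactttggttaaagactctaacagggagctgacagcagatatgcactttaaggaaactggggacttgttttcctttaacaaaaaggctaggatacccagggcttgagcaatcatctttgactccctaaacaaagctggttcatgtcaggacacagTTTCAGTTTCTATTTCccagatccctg
Ifi44: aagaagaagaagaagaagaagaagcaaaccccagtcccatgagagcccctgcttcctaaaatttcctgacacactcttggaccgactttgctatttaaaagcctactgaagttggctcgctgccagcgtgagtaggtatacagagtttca

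The Ifit1 region was chr19:34640689-34640870 on the plus strand and the Ifit3 region chr19:34583329-34583528 on the plus strand. The Isg15 region was chr4:156200819-156201018 on the minus strand. The Gbp3 region was chr3:142559844-142560025 on the plus strand, and the Ifi44 region was chr3:151749961-151750110 on the minus strand. Ifit1 and Ifit3, whose proteins bind foreign RNA, each held 2 separate matches, read on the strand opposite to the gene. Isg15, the ubiquitin-like modifier, held 3 overlapping matches in a run, and the guanylate-binding protein gene Gbp3 held 2 overlapping ones. Ifi44 held none in its window, which says only that these letters were not found there.

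Of the 30 members with a window, 17 held an ISRE-like match, a share of 56.7% with a 95% Clopper-Pearson interval of 37.4% to 74.5%. Among all 27025 genes with a window, 3.99% held one. The members were listed as interferon-stimulated genes, so a share above that of all genes may follow from the choice of list. The interval treats members as independent, although the list holds genes of the same families. With the bases before the start alone, the shares were 43.3% of members and 3.46% of genes. A GAS-like match, TTCNNNGAA on either strand, was held by 8 of the 30 members (26.7%) and by 9.55% of all genes, and a GAS-like match can overlap an ISRE-like one, as in Bst2. The median passage difference of the 17 members with an ISRE-like match was 0.82 in DPCs and 0.64 in DSCs on the log2 scale, and that of the 13 members without one was 0.55 and 0.60. The ranges of both sets overlapped widely, from -0.19 to 2.47 with a match and from -2.30 to 2.75 without one in DPCs. A match in these letters is a description of the sequence and not a binding site.

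**Figure D1:**
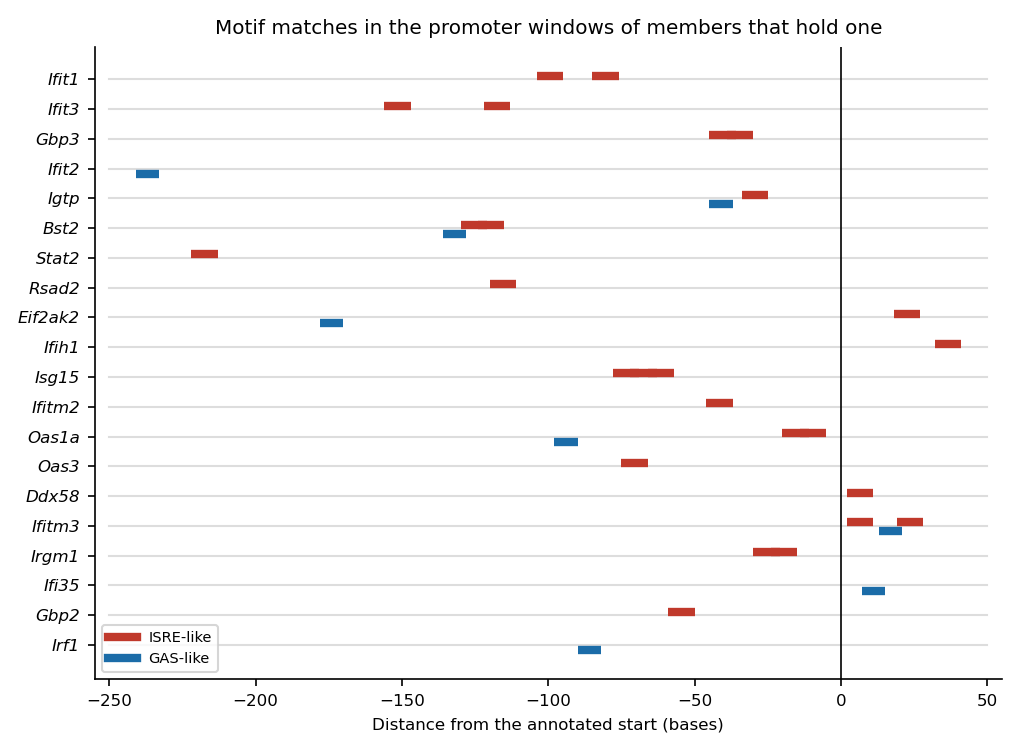
Positions of ISRE-like (red) and GAS-like (blue) matches in the promoter windows of the 20 members that held either, as distance in bases from the annotated start (vertical line). Genes are ordered from the largest to the smallest log2 passage difference in DPCs, and the ISRE-like matches of Ifit1, Ifit3 and Isg15 lie between 57 and 156 bases before the start.

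Counts per library totalled between 34981284 and 47604059. Within each library, 61.1% to 64.0% of genes with 2 to 21 counts had an even count, the excess of even numbers seen where the 2 mates of a pair count separately, so intervals were also computed with all counts halved. Normalised read counts are given as CPM of the TMM-scaled library, and differences are between log2 CPM values with a prior count of 2. A member was called at a 4-fold difference. Each difference carries a 95% interval in brackets, which covers counting error alone and not the spread between cultures. The libraries had the RNA of fibroblasts, with 43703 to 450883 counts for each of the collagen genes Col1a1 and Col1a2. Against low-passage DPCs, high-passage DPCs, where the members were higher, had Col1a1 5.95-fold, Col3a1 8.01-fold and the smooth muscle actin gene Acta2 3.81-fold lower. Other markers went the other way there, with Pdgfra 2.67-fold, Dcn 1.31-fold and the sheath gene Itga8 5.21-fold higher. Of 7 fibroblast markers, 5 had passage intervals below 0 and 2 above 0 in DPCs, and 3 and 4 in DSCs. Of 4 sheath markers these were 3 and 1 in DPCs, and 2 and 2 in DSCs. The part of these markers in the members' differences was not tested. Of the papilla markers, Alpl and Corin had at most 23 and 10 counts in any library. Lef1 had 508 and 2 counts in DPCs at passages 3 and 9, and 101 and 55 in DSCs. Vcan had 4134 and 3447 counts in DPCs and 5272 and 2913 in DSCs. Ncam1, which the study names as a marker of both cell types, had 3642 and 1673 counts in DPCs and 11755 and 15584 in DSCs. It was 3.13-fold lower in DPCs than in DSCs at passage 3 and 7.33-fold lower at passage 9. Sox2 had 1677 and 1491 counts in DPCs and 269 and 178 in DSCs.

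Levels can be compared between genes only per transcript length, and for this the deposited FPKM values were used. The members' median FPKM was 3.07 in DPCs at passage 3 and 8.32 at passage 9, and 6.05 and 9.23 in DSCs. At least 1 FPKM was reached by 31 members in the library with the fewest and by 33 in the libraries with the most. The highest mean FPKM over the libraries belonged to Ifitm2 (421), Ifitm3 (298), Bst2 (67.7), Irgm1 (54.4) and Isg15 (24.5), so the membrane proteins that block virus entry and release headed the list. The lowest belonged to Oas3 (0.0946), Mx1 (0.121) and Oas2 (0.166). The lowest CPM of the 4 libraries was in low-passage DPCs for 31 of the 39 members, and the highest was in high-passage DSCs for 28, beside 28.3% and 19.3% of all genes tested.

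**Figure D2:**
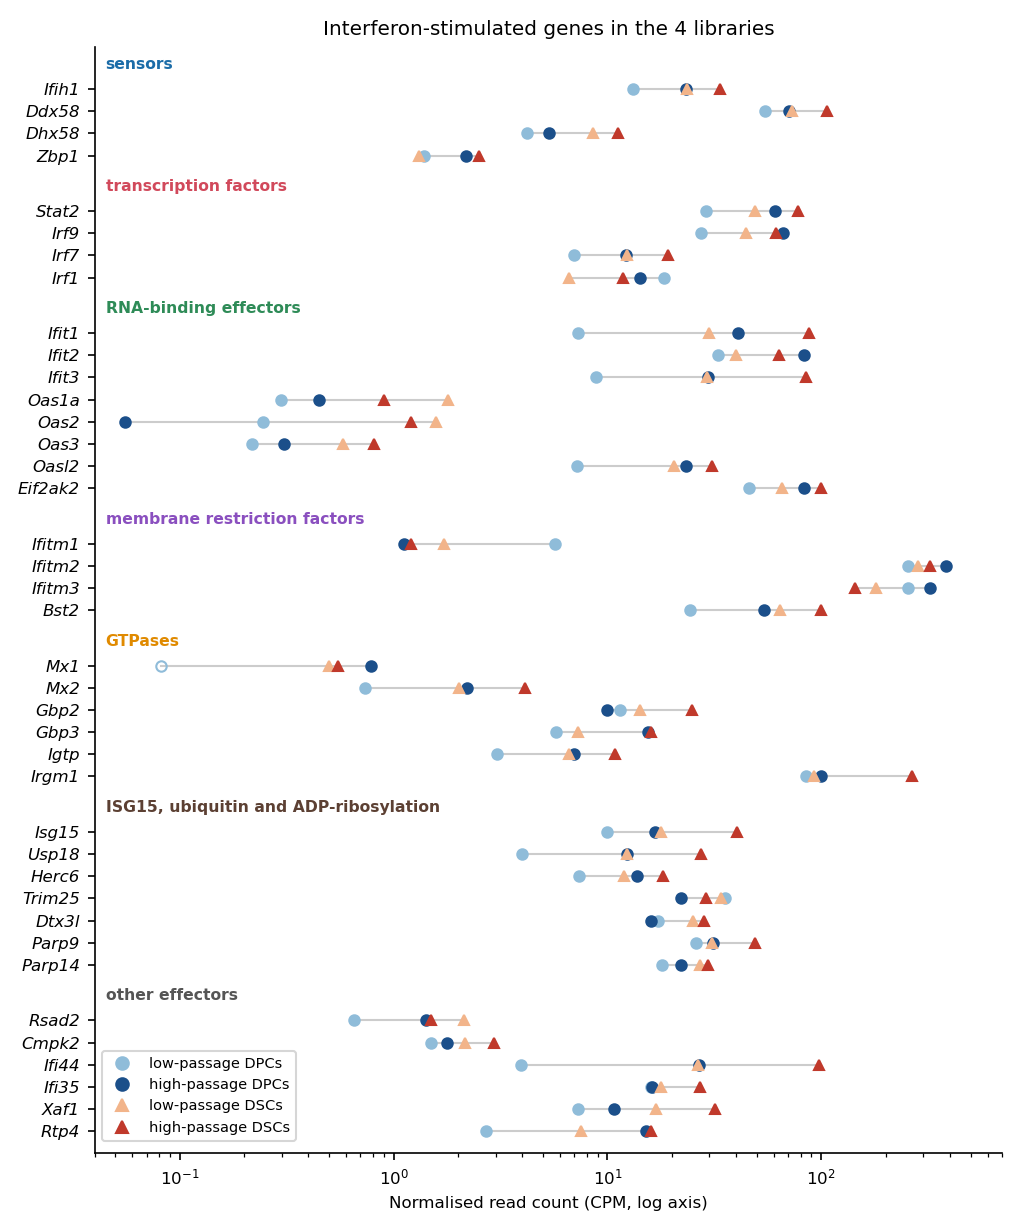
Normalised read count (CPM, log axis) of the 39 members in the 4 libraries, grouped by role, with circles for DPCs and triangles for DSCs, pale for low and dark for high passage. The open circle of Mx1 stands for 0 counts, drawn at the level of 3 counts. Low-passage DPCs lie furthest left for 31 members.

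Between passage 3 and passage 9 the members as a list stood higher in DPCs. Their median difference was 0.73 on the log2 scale, beside 0.03 over all 16734 genes tested, and 33 of 39 had a value above 0. Calls were made for 4 members that were at least 4-fold higher, Ifi44, Ifit1, Rtp4 and Mx1, where 5.58% of all genes tested were 4-fold higher. The membrane protein gene Ifitm1 was the only member 4-fold lower, where 4.36% of all genes were. At 2-fold, 15 members were higher and 2 lower, beside 16.1% and 15.0% of all genes. The counting interval lay above 0 for 29 members and below 0 for 3, beside 39.8% and 37.8% of all genes, and with counts halved for 27 and 3. With Mx1 held at its counting bound the median was again 0.73.

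In DSCs the list also stood higher at passage 9, by smaller amounts at the top of the range. The median difference was 0.61, beside 0.00 over all genes tested, and 33 of 39 members had a value above 0. No member was 4-fold higher or lower, where 2.67% and 1.16% of all genes were. At 2-fold, 8 members were higher and 0 lower, beside 8.55% and 6.21% of all genes. The interval lay above 0 for 31 members and below 0 for 4, beside 33.9% and 32.9% of all genes, and with counts halved for 29 and 3. The 8 members were Ifit1, Ifit3, Gbp3, Irgm1, Isg15, Usp18, Ifi44 and Rtp4.

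Of these, 6 were also at least 2-fold higher in DPCs, namely Ifit1, Ifit3, Gbp3, Usp18, Ifi44 and Rtp4, beside 4.86% of all genes tested that were 2-fold higher in both cell types. In all, 30 of 39 members (76.9%) were higher at passage 9 in both cell types, beside 36.0% of all genes tested. Across the 39 members the differences in DPCs and in DSCs had a Pearson correlation of 0.49 and a Spearman correlation of 0.47, and without Mx1 these were 0.63 and 0.55. The points of that description share the 4 libraries and include genes of the same families, and no test was attached to it.

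Of the sensors, which detect viral nucleic acid in the cytoplasm, all 4 were higher at passage 9 in both cell types and none reached 2-fold. Ifih1, which encodes MDA5, the sensor of long double-stranded RNA, had 484 and 835 counts in DPCs at passages 3 and 9, and 890 and 1532 in DSCs. Its log2 difference was 0.82 in DPCs [0.66, 0.99] and 0.52 in DSCs [0.40, 0.64]. Ddx58, which encodes RIG-I, the sensor of RNA with a 5' triphosphate, differed by 0.39 in DPCs [0.30, 0.47] and 0.55 in DSCs [0.48, 0.62]. Dhx58, which encodes their regulator LGP2, differed by 0.35 [0.04, 0.67] and 0.38 [0.18, 0.59]. Zbp1, a sensor of left-handed double-stranded nucleic acid, was much less abundant, with 51 and 78 counts in DPCs and 50 and 114 in DSCs, and differed by 0.63 [0.12, 1.19] and 0.90 [0.43, 1.43]. With halved counts the intervals of 2 of the 4 sensors stayed above 0 in DPCs and those of all 4 in DSCs.

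The transcription factors that carry the signal to the promoters were higher at passage 9 in both cell types, except Irf1 in DPCs. Stat2, a subunit of the complex that binds the ISRE, had 1064 and 2178 counts in DPCs at passages 3 and 9, and 1859 and 3558 in DSCs. It differed by 1.07 in DPCs [0.96, 1.18] and 0.67 in DSCs [0.59, 0.75]. Irf9, the DNA-binding subunit of the same complex, had 1013 and 2382 counts in DPCs and 1694 and 2811 in DSCs, with differences of 1.27 [1.16, 1.38] and 0.47 [0.38, 0.55]. Irf7, which drives transcription of the interferon alpha genes, had 257 and 439 counts in DPCs and 466 and 871 in DSCs. Its differences were 0.80 in DPCs [0.58, 1.04] and 0.64 in DSCs [0.47, 0.80], with overlapping intervals. Irf1, an early target of interferon gamma, had 678 and 508 counts in DPCs and 251 and 540 in DSCs. Its difference was -0.38 in DPCs [-0.55, -0.21], a lower value at passage 9, and 0.84 in DSCs [0.62, 1.06]. The Irf1 value in DPCs turned to 0.11 with the deposited FPKM, so its direction there depended on the values used.

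Ifit1 and Ifit3 were the RNA-binding effectors with the largest passage differences in both cell types. Ifit1, which binds viral RNA that lacks a methylated cap, had 268 and 1461 counts in DPCs at passages 3 and 9, and 1137 and 3976 in DSCs. The low-passage DPC library was far below the others, and the difference with passage was 5.56-fold in DPCs (log2 2.47 [2.29, 2.68]) and 2.91-fold in DSCs (log2 1.54 [1.45, 1.64]). Ifit3, which stabilises the IFIT1 protein, had 326 and 1061 counts in DPCs and 1102 and 3876 in DSCs, with differences of 1.73 [1.56, 1.92] and 1.55 [1.45, 1.65]. Ifit3 shares 51.2% of its 50-base exonic windows with its neighbour Ifit3b, so reads may have been divided between them, and Ifit3b itself differed by 1.50 and 1.49. Ifit2 differed by 1.34 in DPCs [1.24, 1.44] and 0.66 in DSCs [0.57, 0.75]. These genes lie together on chromosome 19.

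Of the 2'-5' oligoadenylate synthetases, whose product activates RNase L, the members Oas1a, Oas2 and Oas3 had at most 68 counts in a library. Oas1a had 11 and 16 counts in DPCs at passages 3 and 9, and 68 and 41 in DSCs. Its difference was 0.51 in DPCs with an interval across 0 [-0.62, 1.83] and -0.96 in DSCs [-1.59, -0.42], and it shares 57.6% of its windows with Oas1g. Oas2 had 9 and 2 counts in DPCs and 60 and 55 in DSCs. Oas3 had 8 and 11 counts in DPCs and 22 and 37 in DSCs, and the passage intervals of Oas2 and Oas3 included 0 in both cell types. Oas1b, a gene of this family that is not a member, had 30 and 96 counts in DPCs and 74 and 148 in DSCs and differed by 1.65 [1.11, 2.36] and 0.72 [0.32, 1.16]. Oasl2, a related gene with ubiquitin-like domains, was well expressed and differed by 1.69 in DPCs [1.49, 1.90] and 0.58 in DSCs [0.46, 0.71]. Eif2ak2, which encodes the kinase PKR that stops translation in response to double-stranded RNA, differed by 0.85 [0.76, 0.94] and 0.61 [0.54, 0.68]. Of the 8 genes of this role, 5 had intervals above 0 in each cell type.

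The membrane restriction factors differed among themselves in direction. Ifitm1 had 209 and 40 counts in DPCs at passages 3 and 9, and 65 and 55 in DSCs. Low-passage DPCs stood apart from the other libraries, and Ifitm1 was 4.92-fold lower at passage 9 in DPCs (log2 -2.30 [-2.88, -1.86]), whereas the interval in DSCs included 0 (-0.49 [-1.05, 0.03]). Ifitm2 and Ifitm3, which keep virus from fusing with endosomes, had the highest FPKM of the members in every library. Ifitm2 had 9347 and 13674 counts in DPCs and 10687 and 14742 in DSCs and differed by 0.59 [0.55, 0.62] and 0.20 [0.16, 0.23]. Ifitm3 had 9349 and 11596 counts in DPCs and 6842 and 6519 in DSCs, with differences of opposite sign, 0.35 in DPCs [0.31, 0.39] and -0.33 in DSCs [-0.38, -0.29]. Ifitm2 shares 48.5% of its windows with the readthrough gene Gm45717, which had at most 7 counts in a library. Bst2, whose product tetherin holds budding virus at the cell surface, had 894 and 1936 counts in DPCs and 2420 and 4525 in DSCs. It differed by 1.15 [1.04, 1.27] and 0.64 [0.57, 0.71], so that within this role Bst2 alone was 2-fold higher in DPCs.

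Among the GTPases, 5 of 6 had intervals above 0 in each cell type. Mx1, a dynamin-like GTPase that traps viral nucleocapsids, had 0 and 28 counts in DPCs at passages 3 and 9, and 19 and 25 in DSCs. Against a floor of 3 counts it was at least 9.57-fold higher at passage 9 in DPCs, and with the deposited FPKM and a pseudocount of 0.1 it was 3.06-fold higher, under the call. In DSCs its difference was 0.12 with an interval across 0 [-0.79, 1.07]. Mx2, annotated as a polymorphic pseudogene in GENCODE M21, had 27 and 79 counts in DPCs and 77 and 187 in DSCs and differed by 1.52 [0.94, 2.27] and 1.00 [0.62, 1.42]. With the deposited FPKM the value of Mx2 in DSCs was 0.24. The guanylate-binding protein genes, targets of interferon gamma that act on the vacuoles of pathogens, differed from each other. Gbp3 was higher by 1.42 in DPCs [1.19, 1.66] and 1.13 in DSCs [0.94, 1.34]. Gbp2 differed by -0.19 in DPCs [-0.40, 0.02] and 0.81 in DSCs [0.66, 0.96].

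Irgm1 and Igtp (Irgm3) are immunity-related GTPases, which protect host membranes from the effector members of their family. Irgm1 had 3123 and 3587 counts in DPCs at passages 3 and 9, and 3493 and 12060 in DSCs. The high-passage DSC library stood above the 3 others, which lay close together, and the difference was 1.52 in DSCs [1.47, 1.58] and 0.24 in DPCs [0.17, 0.31]. Igtp differed by 1.19 in DPCs [0.87, 1.53] and 0.72 in DSCs [0.50, 0.95]. Igtp shares 11.8% of its windows with the overlapping gene Irgm2, which differed by 1.23 and 1.09.

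Isg15 encodes a ubiquitin-like protein that is joined to other proteins in infected cells, and Usp18 encodes the protease that removes it and also dampens the interferon receptor. Isg15 had 367 and 596 counts in DPCs at passages 3 and 9, and 677 and 1836 in DSCs. Its difference was 0.73 in DPCs [0.55, 0.93] and 1.17 in DSCs [1.05, 1.30]. Usp18 had 146 and 442 counts in DPCs and 466 and 1251 in DSCs, with 1.62 [1.36, 1.91] and 1.16 [1.00, 1.32]. Both had their lowest CPM in low-passage DPCs and their highest in high-passage DSCs. Herc6, the ligase that joins ISG15 to proteins in mice, differed by 0.89 [0.68, 1.12] and 0.61 [0.44, 0.78].

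Trim25, the ubiquitin ligase that activates RIG-I, had 1300 and 796 counts in DPCs and 1289 and 1316 in DSCs and was the only member whose interval lay below 0 in both cell types, at -0.67 in DPCs [-0.80, -0.54] and -0.23 in DSCs [-0.35, -0.12]. Parp9 differed by 0.27 [0.15, 0.40] and 0.65 [0.55, 0.76], and its partner Dtx3l, a ubiquitin ligase that works with it, by -0.11 [-0.28, 0.05] and 0.17 [0.05, 0.29]. The Parp9 and Dtx3l genes overlap on opposite strands, and the use of strand in counting is not given in the sources used here. Parp14, an ADP-ribosyltransferase, differed by 0.29 [0.15, 0.45] and 0.12 [0.00, 0.24].

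In the passage comparisons, Ifi44 had the largest difference of a member with counts in all 4 libraries. It had 145 and 962 counts in DPCs at passages 3 and 9, and 1005 and 4431 in DSCs. High-passage DPCs and low-passage DSCs were nearly equal, at 26.8 and 26.5 CPM, between 3.94 CPM in low-passage DPCs and 97.2 CPM in high-passage DSCs. The passage difference was 6.73-fold in DPCs (log2 2.75 [2.51, 3.03]) and 3.66-fold in DSCs (log2 1.87 [1.78, 1.98]). Rtp4, a chaperone of receptors at the cell surface, had 100 and 545 counts in DPCs and 284 and 731 in DSCs. It was 5.50-fold higher in DPCs (log2 2.46 [2.17, 2.80]) and 2.13-fold higher in DSCs (log2 1.09 [0.90, 1.30]). Rtp4 shares 11.6% of its windows with the overlapping gene Gm45338, which had 102 and 77 counts in DPCs and 151 and 271 in DSCs.

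The remaining effectors were lower in level or differed less. Rsad2, which encodes viperin, a radical SAM enzyme that makes a chain-terminating nucleotide, had 24 and 51 counts in DPCs and 81 and 68 in DSCs. Its difference was 1.07 in DPCs [0.40, 1.89] and -0.50 in DSCs, where the interval ended at -0.03, and with halved counts the interval in DSCs included 0 (-1.20 to 0.20). Cmpk2, its chromosomal neighbour and a mitochondrial nucleotide kinase, had 55 and 64 counts in DPCs and 82 and 135 in DSCs and differed by 0.25 [-0.29, 0.80] and 0.45 [0.05, 0.87]. Xaf1, which promotes cell death, differed by 0.55 [0.33, 0.79] and 0.90 [0.77, 1.04]. Ifi35 differed by 0.02 in DPCs [-0.15, 0.18] and 0.60 in DSCs [0.46, 0.74].

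**Figure D3:**
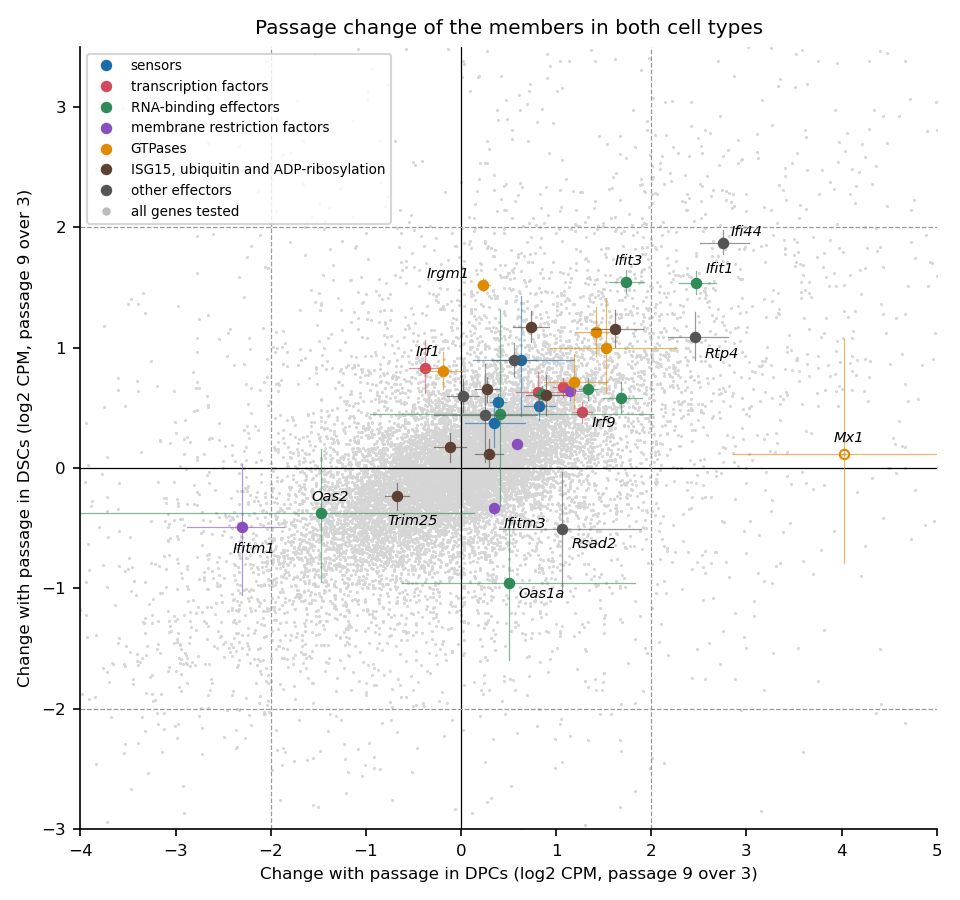
Difference between passage 9 and passage 3 (log2 CPM) in DPCs (x axis) and DSCs (y axis) for the 39 members, coloured by role, with 95% counting intervals as thin lines, over all genes tested in grey, with dashed lines at 4-fold. Most members lie in the upper right, Ifitm1 lies to the left, and the open Mx1 point is a fitted value from 0 counts. Axes end at -4 and 5 and at -3 and 3.5, so some grey points and interval ends lie outside.

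A second question of the design is how DPCs and DSCs differed at the same passage. At passage 3 the members were lower in DPCs than in DSCs, with a median difference of -0.76 beside 0.00 over all genes tested. Of the 39, 5 were 4-fold lower in DPCs, namely Ifit1, Oas1a, Oas2, Mx1 and Ifi44, and 0 were 4-fold higher, beside 2.77% and 1.52% of all genes. At 2-fold, 16 were lower and 2 higher, beside 7.86% and 5.43%. Ifi44 was 6.65-fold lower in DPCs (log2 -2.73 [-3.01, -2.50]) and Ifit1 4.10-fold lower (log2 -2.03 [-2.24, -1.85]). Mx1, with 0 counts in low-passage DPCs, was at least 6.15-fold lower there. With the deposited FPKM, Ifit1 (3.77-fold), Oas1a (3.94-fold), Oas2 (2.93-fold) and Mx1 (2.41-fold) were under 4-fold and Mx2 was over it (4.69-fold). The 2 members that were at least 2-fold higher in DPCs were Irf1, by 1.47 [1.27, 1.69], and Ifitm1, by 1.70 [1.32, 2.15]. Ifitm3 was higher by less, 0.49 [0.45, 0.54].

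At passage 9 the members were again lower in DPCs, with a median difference of -0.63 beside -0.01 over all genes. Oas2 was the only member 4-fold lower in DPCs (log2 -3.56 [-7.52, -2.52], from 2 counts against 55, and 3.16-fold with the deposited FPKM), and 0 members were 4-fold higher, beside 3.91% and 2.50% of all genes. At 2-fold, 11 were lower and 1, Ifitm3, was higher, beside 11.0% and 9.11%. Ifitm3 was 2.26-fold higher in DPCs (log2 1.18 [1.13, 1.22]). Several members with large differences at passage 3 were close at passage 9. Rtp4 differed by -0.08 [-0.24, 0.08], Rsad2 by -0.07 [-0.62, 0.47] and Ifitm1 by -0.11 [-0.74, 0.50], while Ifi44 differed by -1.86 [-1.96, -1.76], Xaf1 by -1.56 [-1.73, -1.40] and Ifit3 by -1.52 [-1.62, -1.43]. In all, 30 of 39 members (76.9%) were higher in DSCs at both passages, beside 26.5% of all genes tested. These comparisons share libraries with the passage comparisons and are not separate evidence of them.

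**Figure D4:**
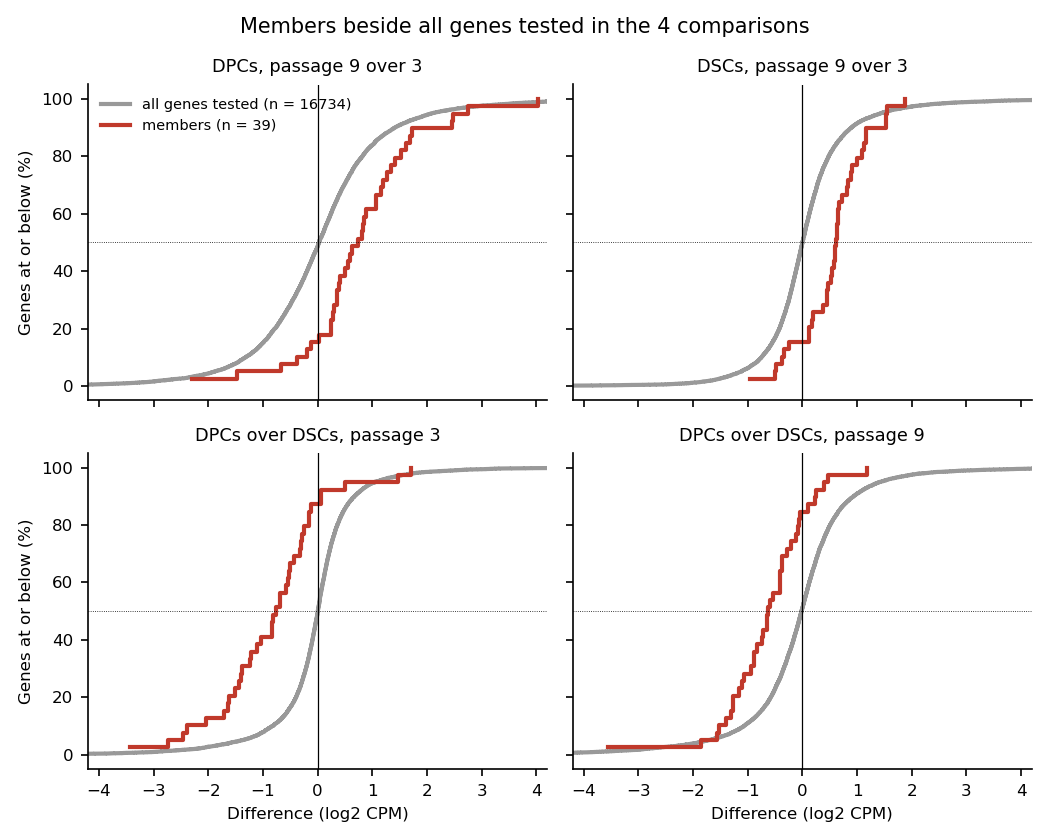
Cumulative share (%) of the 39 members (red) and of all 16734 genes tested (grey) against the log2 CPM difference in the 4 comparisons. The red curves lie right of the grey ones for passage 9 over passage 3, with medians of 0.73 and 0.61, and left of them for DPCs over DSCs, with medians of -0.76 and -0.63.

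Across the 4 libraries, 25 of 39 members (64.1%) had low-passage DPCs lowest and high-passage DSCs highest, an order shared by 9.21% of all genes tested. The summed CPM of the members was 1051 in DPCs at passage 3 and 1616 at passage 9, and 1291 and 1980 in DSCs. This sum is carried by Ifitm2 and Ifitm3, and without them it was 543 and 912 in DPCs and 828 and 1513 in DSCs. The geometric mean, which weights members equally, was 7.37 and 12.7 CPM in DPCs and 13.3 and 19.9 CPM in DSCs, so high-passage DPCs were close to low-passage DSCs. The order of these middle libraries has no replicate behind it.

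A model with 1 term for cell type and 1 for passage was fitted over all 16734 genes, which left 1 residual degree of freedom, which comes from how far DPCs and DSCs responded differently. In edgeR's quasi-likelihood test with p-values adjusted by the Benjamini-Hochberg method, 0 of 39 members and 0% of all genes passed an adjusted p of 0.05. The smallest adjusted p of a member was 0.188, for Ifit1, with an additive log2 difference of 2.01. At an unadjusted p under 0.05 the edgeR test gave 19 members, all higher at passage 9, beside 9.07% of all genes tested that were higher at that level. DESeq2's Wald test on the same model gave 6 members with an adjusted p under 0.05, all higher, beside 3.18% of the genes it tested. They were Ifi44, with a DESeq2 adjusted p of 3.17e-07, Ifit1 (1.75e-05), Ifit3 (8.18e-05), Rtp4 (0.0125), Usp18 (0.0159) and Gbp3 (0.0432). The edgeR and DESeq2 results therefore differed, and both rest on a spread that stands in for replicates.

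Interferons themselves were close to absent from the counts. Of 21 ligand genes, 19 had 0 counts in all 4 libraries, among them Ifnb1, Ifng and every listed Ifna gene, which allows up to 3 counts or 0.0658 to 0.0836 CPM in a library. Ifnab had 2 counts in high-passage DPCs and 0 elsewhere, and Ifnz had 21 and 20 counts in DPCs at passages 3 and 9, and 15 and 12 in DSCs. The interval of Ifnz included 0 in both cell types. Ligand RNA was thus not detectable at this depth beyond these genes.

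Of the 6 receptor subunits, 2 were above 0 in DPCs and 3 in DSCs, with medians of -0.33 and 0.04. Ifnar1, a subunit of the type I receptor, had 2309 and 1468 counts in DPCs at passages 3 and 9, and 2535 and 2732 in DSCs. It differed by -0.62 in DPCs [-0.71, -0.52] and -0.16 in DSCs [-0.24, -0.08]. Its partner Ifnar2 differed by -0.59 [-0.73, -0.46] and -0.10 [-0.20, 0.01]. Of the type II receptor, Ifngr1 differed by 0.50 [0.41, 0.59] and 0.35 [0.27, 0.44] and Ifngr2 by -0.29 [-0.37, -0.21] and 0.17 [0.10, 0.24]. Il10rb, shared by the type III receptor, differed by -0.37 in both cell types, and its partner Ifnlr1 had 0 and 18 counts in DPCs and 19 and 36 in DSCs. Ifnlr1 was at least 6.15-fold higher at passage 9 in DPCs and was the only one of the 6 subunits called. Its level was low, with a deposited FPKM of 0 at passage 3 and 0.109 at passage 9 in DPCs.

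None of the kinases described here was called. Jak1 differed by -0.89 in DPCs [-0.93, -0.84] and -0.43 in DSCs [-0.47, -0.39], and Tyk2 by -0.61 [-0.75, -0.47] and -0.54 [-0.65, -0.43], so both kinases of the type I receptor were lower at passage 9. Jak2 differed by 0.11 [0.02, 0.21] and 0.04 [-0.05, 0.13]. Stat3 differed by 0.23 [0.18, 0.29] and 0.16 [0.11, 0.20].

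Of 13 negative regulators, 7 were above 0 in DPCs and 6 in DSCs, with medians of 0.18 and -0.03. Trex1, which degrades cytoplasmic DNA, was called in DPCs, with 41 counts in low-passage and 181 in high-passage cells (log2 2.13 [1.68, 2.70]), and differed by 0.43 in DSCs [0.07, 0.82]. All of its exonic bases lie within Atrip on the same strand, so its counts are uncertain. Socs3, an inhibitor of JAK kinases, differed by 0.71 [0.58, 0.84] and 1.56 [1.39, 1.74]. Of 14 other nucleic acid sensors and adaptors, 13 were tested, with medians of 0.31 in DPCs and 0.03 in DSCs. Among them Tlr7, an endosomal receptor for single-stranded RNA found mostly in immune cells, was called lower in DSCs, with 67 counts at low and 14 at high passage (log2 -2.34 [-3.47, -1.68]), and differed by -1.94 in DPCs [-2.84, -1.30].

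A wider list of 74 other interferon-stimulated genes, of which 64 were tested, had a median of 0.55 in DPCs and of 0.31 in DSCs. In DPCs 5 were 4-fold higher (Ifi27l2a, Tgtp1, Tgtp2, Cd274 and Lgals3bp) and Ifi203 was 4-fold lower. In DSCs 5 were 4-fold higher (Gbp4, Tgtp2, Ifi27l2a, Trim30a and Gvin1) and 0 lower. At 2-fold, 23 were higher and 6 lower in DPCs, and 17 were higher and 3 lower in DSCs. The shares of all genes tested in DPCs were 5.58% and 4.36% at 4-fold and 16.1% and 15.0% at 2-fold, and in DSCs they were 2.67% and 1.16%, and 8.55% and 6.21%. Ifi27l2a, which encodes a small mitochondrial protein, had 53 and 968 counts in DPCs at passages 3 and 9, and 240 and 1601 in DSCs. It differed by 4.18 in DPCs [3.83, 4.65] and 2.46 in DSCs [2.28, 2.67], more than any member with counts in all 4 libraries. Tgtp1 and Tgtp2 are near-identical GTPase genes between which reads may be divided. Tgtp1 had 39 and 234 counts in DPCs and 65 and 319 in DSCs, and Tgtp2 had 28 and 118 counts in DPCs and 28 and 243 in DSCs.

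Cd274, which encodes PD-L1, had 56 and 307 counts in DPCs and 144 and 289 in DSCs, with differences of 2.45 in DPCs [2.08, 2.93] and 0.73 in DSCs [0.45, 1.04]. Lgals3bp, a secreted glycoprotein gene, had 5435 and 21422 counts in DPCs and 11895 and 24604 in DSCs and differed by 2.01 [1.97, 2.06] and 0.78 [0.75, 0.82]. Ifi203, a gene of the DNA-binding IFI200 family, had 73 and 15 counts in DPCs and 63 and 296 in DSCs, and its differences ran in opposite directions, at -2.12 in DPCs [-3.16, -1.43] and 1.93 in DSCs [1.57, 2.38]. In DSCs, Trim30a differed by 2.40 [2.20, 2.63] and Gvin1 by 2.30 [2.07, 2.56]. Gbp4, with 0 and 27 counts in DSCs at passages 3 and 9 (FPKM of 0 and 0.108), was at least 7.49-fold higher. The chemokine gene Cxcl10 had 32 to 47 counts and its intervals included 0 in both cell types, while Cxcl9 and Cxcl11 had 0 counts in every library.

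**Figure D5:**
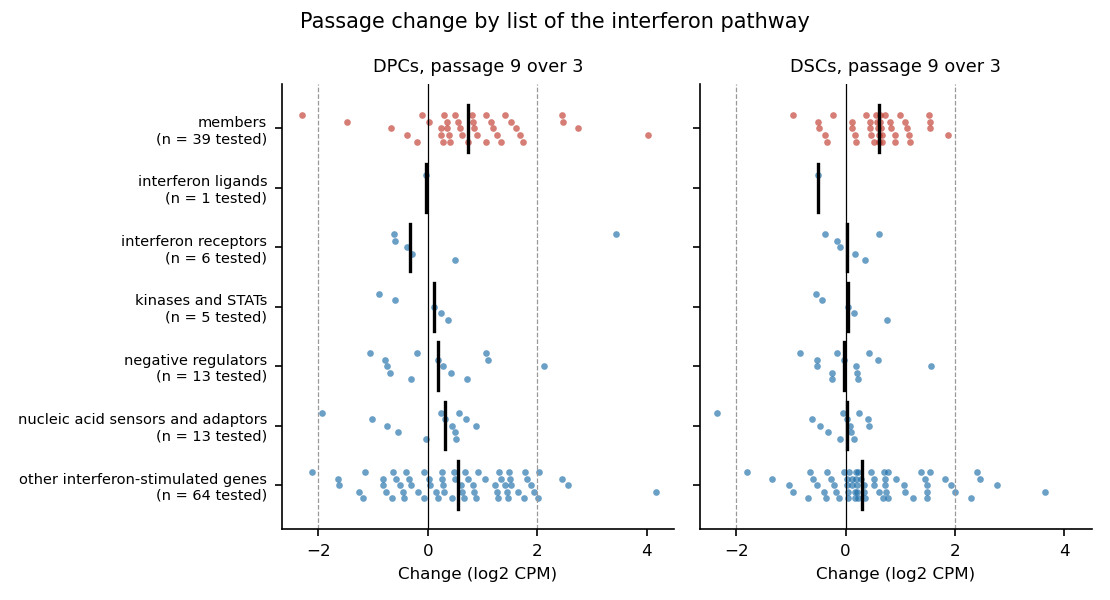
Difference between passage 9 and passage 3 (log2 CPM) of every tested gene in the members (red) and in the other lists of the interferon pathway (blue), in DPCs (left) and DSCs (right). Black bars are medians and dashed lines mark 4-fold. Medians are 0.73 and 0.61 for the members, 0.55 and 0.31 for the other interferon-stimulated genes and -0.33 and 0.04 for the receptors.

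Immune cells express many interferon-stimulated genes, so their markers were read beside the members. The summed level of 14 immune marker genes was 156 CPM in DPCs at passage 3 and 89.5 at passage 9, and 209 and 120 in DSCs, so it was lower at passage 9 in both cell types, where the members were higher. Itgam stands under more than 1 gene ID, so rows were counted here. Of the 12 rows tested, 10 had intervals below 0 in each cell type, with a different Itgam row among them in DPCs and in DSCs. Among the 10 was the leukocyte gene Ptprc, with 70 and 22 counts in DPCs and 116 and 18 in DSCs. The T cell gene Cd3e and the plasmacytoid dendritic cell gene Siglech had 0 counts in every library. Lyz2, a macrophage gene, carried most of the sum, and Cd14 went the other way, with 207 and 750 counts in DPCs and 268 and 550 in DSCs. Keratinocyte markers summed to 2.34 and 6.44 CPM in DPCs and 4.11 and 52.7 CPM in DSCs, the last of which came from the desmosome gene Dsp with 2307 counts, while Krt5, Krt14, Krt1 and Krt15 had 0 counts in every library. The part of these markers in the members' differences was not tested.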

How the data were processed

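The 4 libraries (1 per group) were analysed from tables made by the authors. The deposited raw gene count table holds whole numbers that were not normalised. The deposited FPKM tables, 1 per library, hold values that the authors scaled by transcript length and depth. The submitters' processing notes name Bowtie 0.12.2 and genome builds other than GRCm38, although the positions in the tables match GRCm38: of 51826 IDs, 51633 were found in GENCODE M21 and 94.1% of these had an identical position, as did all 39 members. The counting tool, its annotation release and its use of strand are not given in the sources used here. The labels and the study's methods name different library kits.

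Counts were scaled by TMM in edgeR 4.0.16 (R 4.3.3). Genes with a mean below 10 counts were left out, and log2 CPM used a prior count of 2. Library totals ran from 34981284 to 47604059. Intervals on the ratio of a gene's counts in a pair of libraries were 95% Clopper-Pearson intervals, and the floor was 3 counts. These cover counting error only, since reads without molecular identifiers are not independent molecules. With 1 library a group no contrast was tested. The passage term of the additive fit was tested with edgeR's quasi-likelihood test, with DESeq2 1.42.0 as the alternative, and scripts were tested on simulated data.

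Counts in every library were given for members called in a passage comparison, for the 5 members of highest mean FPKM and for the transcription factors. Pathway genes were named when called, or when they were receptor subunits, kinases or STATs. Other members, pathway genes and markers were named after their values were seen. The members and gene lists were chosen with earlier results of these data known. RefSeq promoter windows were searched for motifs in Python 3.11.15. Alternatives were other scalings, filters, prior counts and thresholds, the deposited FPKM with a pseudocount of 0.1, and DESeq2. A result that is withheld is not reported here.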

Additional observations from a re-analysis of the deposited data

Results flagged for a closer look

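For 3 members the counting intervals of the passage difference lay on opposite sides of 0 in DPCs and DSCs, which is 7.69% of the members beside 11.6% of all genes tested. The difference between the cell types was not tested, since each value rests on 1 library a group. For Irf1, the early target of interferon gamma, the value in DPCs minus the value in DSCs was -1.2142 on the log2 scale, and the value in DPCs was 0.11 instead of -0.38 with the deposited FPKM. For Ifitm3, which blocks virus entry, it was 0.6818. For Rsad2, which encodes viperin, it was 1.5688, and the interval of Rsad2 in DSCs included 0 when counts were halved.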

How the results depend on the processing

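The members' median difference kept its sign in all 4 comparisons under the scalings, filters, prior counts and FPKM tried. It lay between 0.66 and 0.84 for passage in DPCs, between 0.58 and 0.65 for passage in DSCs, between -0.76 and -0.57 for DPCs over DSCs at passage 3 and between -0.66 and -0.52 at passage 9. Counts of called members changed with the threshold. At 2-fold in place of 4-fold, 15 members were higher and 2 lower with passage in DPCs and 8 were higher in DSCs, while between cell types 2 were higher and 16 lower in DPCs at passage 3, and 1 was higher and 11 lower at passage 9. With a minimum mean of 100 counts, which leaves out members of low counts, 0 members were lower with passage in DPCs, 2 were lower in DPCs than DSCs at passage 3 and 0 at passage 9. With a prior count of 10, 2 were lower at passage 3. With the deposited FPKM and a pseudocount of 0.1, 2 were lower at passage 3 and 0 at passage 9, and the value of Irf1 with passage in DPCs turned from -0.38 to 0.1107. Of the 78 member values with passage, 14 others moved past their counting interval with FPKM, among them Mx1 in DPCs, which lost its 4-fold call (log2 1.61), and Mx2 in DSCs (from 1.00 to 0.24). The fitted value of Mx1 in DPCs fell from 4.02 to 2.02 with a prior count of 10. The passage term shared by DPCs and DSCs was significant for 0 members in edgeR and for 6 in DESeq2, where the cause of the difference was not tested. No pairing of replicate cultures was possible because the labels give no replicate numbers and each group is 1 library. Depth limits what can be said of Mx1, Oas1a, Oas2 and Oas3, which had at most 68 counts in any library.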

Other observations

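The summed markers of Schwann and endothelial cells were lower at passage 9, where the members were higher, and those of keratinocytes and melanocytes were not. The Schwann cell genes summed to 7.96 and 3.65 CPM in DPCs at passages 3 and 9, and 14.5 and 5.09 CPM in DSCs, and Sox10 had 28 counts in low-passage DPCs, 116 in low-passage DSCs and 0 at passage 9 in both. The endothelial genes summed to 2.42 and 0.112 CPM in DPCs and 5.64 and 1.08 CPM in DSCs. The melanocyte genes Tyr, Tyrp1, Dct and Mlana had 0 counts in every library. Pmel, also on that list, had 17 and 36 counts in DPCs at passages 3 and 9, and 33 and 47 in DSCs. It differed by 1.04 in DPCs [0.25, 2.04] and 0.23 in DSCs [-0.43, 0.93]. The part of these cells in the members' differences was not tested.

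Copies of members that can share reads were read side by side. Gbp7, the neighbour of Gbp3, differed by -0.08 in DPCs and 0.05 in DSCs, where Gbp3 differed by 1.42 and 1.13. Gm45338, which overlaps Rtp4 on the same strand, differed by -0.36 and 0.57, where Rtp4 differed by 2.46 and 1.09. Ifit1bl2, beside Ifit1, had 14 and 30 counts in DPCs and 25 and 39 in DSCs.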
